A study of Mus musculus with 12 samples.

Results

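Intermediate filament usage was examined through 10 genes of the 49671 in the count table: the neurofilament subunits Nefh, Nefm and Nefl, nestin (Nes), vimentin (Vim), the lamins Lmna, Lmnb1 and Lmnb2, and the keratins Krt8 and Krt18. The 10 genes were chosen by symbol, with earlier results of these same libraries known, so their levels and changes describe these libraries and are not independent support. The data are 12 mouse RNA-seq libraries, 3 from each of 4 genotypes: wild type, a knockout (KO) of Lyl1, a KO of Scl, and a double KO of both. Each library is labelled as a pool of embryos at embryonic day 9.5. The labels do not say which alleles were used, how many embryos went into a pool or whether replicates came from different litters. The sample titles call the replicates of each genotype biological ("Bio Rep"), and what separates them beyond that is not stated. P-values therefore cover only the spread between these samples. Scl (gene symbol Tal1) and its close relative Lyl1 are transcription factors of the basic helix-loop-helix family, known from blood and endothelium, that bind the DNA motif called an E-box.

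Intermediate filaments are the rope-like polymers that give a cell and its nucleus mechanical strength. Vimentin builds them in mesenchymal, endothelial and blood cells, nestin joins vimentin in progenitor cells, neurofilaments fill axons, and keratins assemble in pairs in epithelia. The lamins line the inner face of the nuclear envelope: Lmna gives lamins A and C, which rise as cells mature, and Lmnb1 and Lmnb2 give the B-type lamins found in nearly all cells.

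Total counts lay between 24324685 and 29212443 per library. Levels are given as CPM, read counts relative to the library total after scaling by trimmed mean of M-values (TMM), and as RPKM, which is CPM per kilobase of the deposited gene length, where genes are compared with each other. A count of 0 allows up to 0.0936 to 0.131 CPM, depending on the library, for counting error only. As a check of the labels, mean Tal1 was 19.2% of the wild-type level in Scl KO and 16.2% in the double KO, and 101% in Lyl1 KO. Mean Lyl1 was 48.5% of the wild-type level in Lyl1 KO and 46.5% in the double KO, and 96.9% in Scl KO. The Lyl1 difference between Lyl1 KO and wild type did not pass the threshold over all genes (edgeR quasi-likelihood test, adjusted p = 0.286), although the groups did not overlap.

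The tissue label went against the markers. The neural marker Sox1 and the epithelial markers Cldn6, Cldn7 and Grhl2 had no count in any library. The summed level of 15 neural markers lay between 2.38 and 9.57 CPM over the 12 libraries, that of 11 epithelial markers between 2.27 and 10.8 CPM and that of 11 mesenchyme markers between 15.03 and 352 CPM. In contrast, 13 megakaryocyte and platelet markers, led by Ppbp, Itgb3 and Itga2b, summed to between 55800 and 63770 CPM in the wild-type group, 61040 and 70350 CPM in Lyl1 KO, 42400 and 58240 CPM in Scl KO, and 16140 and 33160 CPM in the double KO. Megakaryocyte genes were not the only ones present. Over the 12 libraries, macrophage markers, led by Lyz2, summed to between 3023 and 6753 CPM. Endothelial markers summed to between 239 and 560 CPM and red cell markers to between 27.5 and 387 CPM. The samples are therefore called libraries here, not embryos. In Lyl1 KO 3 and in replicates 1 and 2 of the double KO, Y-linked genes reached 189 to 265 CPM and Xist at most 1.79 CPM. The other 9 libraries had at most 0.214 CPM of Y-linked genes. They include all wild-type and Scl KO libraries and double KO 3, which had Xist at 740 CPM. Nefh was at 0.219 CPM in double KO 3, and at 0.268 and 0.299 CPM in replicates 1 and 2. Nes was at 86.5 CPM there, against 24.5 and 25.5 CPM, and Vim at 413 CPM, against 149 and 168 CPM. The part of sex in these levels was not tested.

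Of the 10 genes, 6 passed the filter on low counts and were tested: Nefh, Nes, Vim, Lmna, Lmnb1 and Lmnb2. Nefm, Nefl, Krt8 and Krt18 were too low. Calls below are genes with an adjusted p under 0.05 over all 15399 genes tested. None of the 6 was called in Lyl1 KO against wild type, where 0.0714% of all genes were called, and none had an unadjusted p under 0.05. By DESeq2's Wald test none was called there either. In Scl KO against wild type 1 of 6 was called (Nefh, down), beside 5.03% of all genes. In the double KO against wild type 3 of 6 were called (Nefh and Lmna down, Nes up), beside 34.5% of all genes. The same 3 genes were called in the double KO against Lyl1 KO, beside 35.2%. In the double KO against Scl KO 2 of 6 were called (Nefh and Lmna, both down), beside 19.1% of all genes. With the replicate number as a block 3 of 6 were called there (Lmnb1 added, up), and 3722 of all genes in place of 2947. The interaction, which asks whether losing Lyl1 has another effect in Scl KO than in wild-type libraries, was called for 1 of 6 (Nefh, down), beside 9.38% of all genes. The comparisons share groups and are not independent of each other. The plot of fitted changes gives all of them with their intervals.

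**Figure D1:**
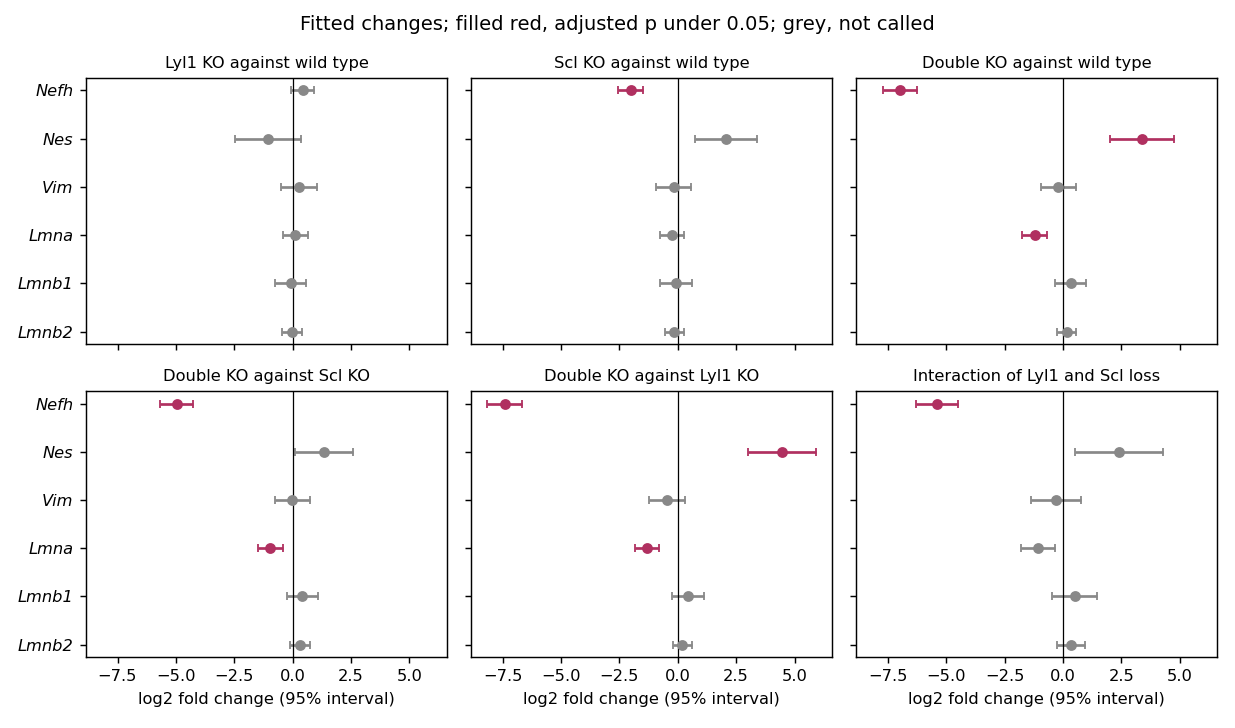
Fitted log2 fold change (x axis) of the 6 tested genes (y axis) in each of the 6 comparisons, with 95% intervals from the edgeR fit; red marks an adjusted p under 0.05. Nefh lies far to the left in every comparison that involves the double KO, Nes to the right, and Vim, Lmnb1 and Lmnb2 have intervals that include 0 throughout.

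Nefh encodes the heavy neurofilament subunit (ENSMUSG00000020396, chromosome 11, 4938754 to 4948064, minus strand, GRCm38). Wild-type libraries had 37.0, 33.6 and 30.9 CPM, and Lyl1 KO libraries 63.6, 41.5 and 31.1 CPM. In Scl KO it was at 9.86, 8.56 and 6.51 CPM. The double KO had 0.268, 0.299 and 0.219 CPM, from 8, 9 and 7 counts. Wild type and Lyl1 KO overlapped, every Scl KO library was below both, and every double KO library was below every Scl KO library.

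Nefh fell by 2.03 ± 0.237 (log2, ± SE) in Scl KO against wild type, which is 4.07-fold (edgeR, adjusted p = 0.000502). In the double KO it fell by 6.99 ± 0.333 against wild type, 127-fold (adjusted p = 1.12e-07), and by 4.97 ± 0.329 against Scl KO, 31.3-fold (adjusted p = 7.49e-06). Against Lyl1 KO it fell by 7.42 ± 0.336 (adjusted p = 6.38e-08). The difference between Lyl1 KO and wild type was 0.43 ± 0.225 (adjusted p = 0.68, 95% interval -0.07 to 0.92). The effect of Lyl1 loss thus differed between the Scl backgrounds, with an interaction of -5.39 ± 0.404 (adjusted p = 8.52e-05). All of these calls were kept under every alternative run.

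The partners that Nefh assembles with in neurons were almost absent. Nefm, the medium subunit (chromosome 14, 68082590 to 68124846, minus strand), had 11 counts over the 3 wild-type libraries, 3 in Lyl1 KO, 4 in Scl KO and 0 in the double KO. Nefl, the light subunit (chromosome 14, 68083863 to 68089095, plus strand), lies within the span of Nefm on the opposite strand, and the counting was strand-specific. It had 7, 8, 4 and 8 counts in the same order of groups. The highest single-library level of either gene was 0.305 CPM (Nefm in wild type 2), against 63.6 CPM for Nefh. Other filament genes of neurons were as low: Ina (internexin) had 7 counts and Prph (peripherin) 41 counts over all 12 libraries.

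Of the 15 neural markers, 3 had enough counts to test, and 1 of them was called in the double KO against wild type. Tubb3, a neuronal tubulin, was at 3.54, 4.45 and 2.26 CPM in the wild-type group and at 0.670, 0.332 and 0.281 CPM in the double KO. Tubb3 fell by 2.99 ± 0.480 against wild type (adjusted p = 0.000553). In Scl KO, where Nefh was called lower, Tubb3 was at 6.81, 4.71 and 2.84 CPM and was not called (adjusted p = 0.603). Map2, a protein of neuronal microtubules, was at 0.564 ± 0.238 CPM in the wild-type group and 1.26 ± 0.840 CPM in the double KO (adjusted p = 0.162), and was called higher against Lyl1 KO, by 1.97 ± 0.638 (adjusted p = 0.0315). Fabp7, a fatty acid binding protein of neural progenitors, was not called in any comparison (double KO against wild type -1.29 ± 0.657, adjusted p = 0.149). The part of neural cells in the Nefh levels was not tested.

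Over the 12 libraries, the genes whose log2 CPM followed that of Nefh most closely were Thbs1 (Pearson r = 0.997), Hba-a1 (r = 0.996) and Odc1 (r = 0.996), of 9342 candidates with a mean of at least 5 CPM. These are descriptions over 12 libraries that share their groups and depth. Thbs1, the thrombospondin of platelet granules, was at 19750, 20570, 5787 and 407 CPM (group means of wild type, Lyl1 KO, Scl KO and double KO). Hba-a1, an adult alpha globin, was at 200, 249, 39.3 and 0.702 CPM. It has a near-identical copy, and reads that fit both were not counted, because multi-mapping reads were left out. Odc1, ornithine decarboxylase of polyamine synthesis, was at 369, 427, 183 and 46.1 CPM. In a bulk library, fewer cells of a type and less RNA per cell cannot be told apart.

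**Figure D2:**
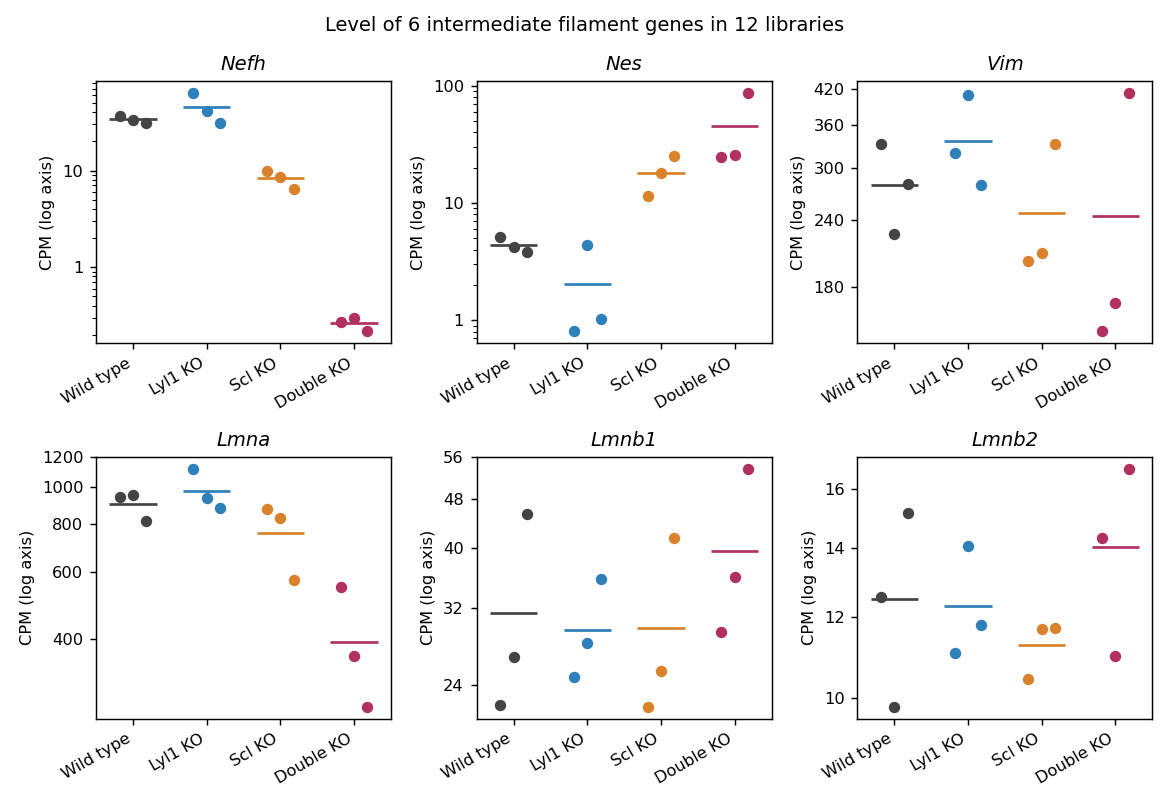
Level in CPM (y axis, log scale) of the 6 tested genes in each library (points) of the 4 genotypes (x axis), with the group mean as a line; n = 3 per group, replicates 1 to 3 from left to right. Nefh falls in steps to 0.262 CPM in the double KO, Nes lies highest in the double KO with replicate 3 above the other replicates, and Lmna is lowest there.

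Nes encodes nestin (ENSMUSG00000004891, chromosome 3, 87971078 to 87980451, plus strand). It was at 5.08, 4.18 and 3.83 CPM in the wild-type group and at 0.810, 4.33 and 1.02 CPM in Lyl1 KO, where replicate 2 was inside the wild-type range and the other replicates below it. Scl KO had 11.4, 18.1 and 24.9 CPM. The double KO had 24.5, 25.5 and 86.5 CPM. Every Scl KO library was above every wild-type library, and the double KO overlapped Scl KO.

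Nes rose by 3.38 ± 0.628 in the double KO against wild type, 10.4-fold (adjusted p = 0.00148), and by 4.45 ± 0.671 against Lyl1 KO, 21.9-fold (adjusted p = 0.00033). Against Lyl1 KO the change was 5.63 without Lyl1 KO 2 (adjusted p = 0.000213) and 3.58 without double KO 3 (adjusted p = 0.000648). Double KO 3 also sets much of the size elsewhere: without it the change against wild type was 2.51 (adjusted p = 0.00461) and that against Scl KO 0.45 (adjusted p = 0.604), compared with 1.33 ± 0.571 with it (adjusted p = 0.129). Scl KO against wild type was 2.05 ± 0.606, 4.15-fold, and missed the threshold (adjusted p = 0.0809). By DESeq2's Wald test its adjusted p was 0.0455, and in a fit of the 6 libraries alone 0.00993. Lyl1 KO differed from wild type by -1.07 ± 0.645 (adjusted p = 0.711). The interaction was 2.40 ± 0.860 (adjusted p = 0.109).

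Because Lyl1 and Scl bind E-boxes and act beside GATA factors, the bases before the RefSeq start of Nes (GRCm38.p6, chr3:87970843-87971077, plus strand) are shown, with the match to GATA, here on the reverse strand as TATC, in capitals.
Nes: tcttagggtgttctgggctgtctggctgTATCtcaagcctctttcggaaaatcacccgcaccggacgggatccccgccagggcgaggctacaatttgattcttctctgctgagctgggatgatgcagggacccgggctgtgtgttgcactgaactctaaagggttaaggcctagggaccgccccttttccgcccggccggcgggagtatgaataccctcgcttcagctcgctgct
The 250 bases before the start held 1 GATA and no E-box (CANNTG), searched on both strands. Of 32851 RefSeq promoters of that length, 66.2% held an E-box and 53.6% a GATA. A match is only these letters and no measured binding.

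The genes most like Nes over the 12 libraries were Dhx40 (Pearson r = 0.945), Anxa1 (r = 0.942) and Cytip (r = 0.939). Anxa1, an annexin of inflammatory cells, had group means of 186, 152, 316 and 467 CPM in the wild-type group, Lyl1 KO, Scl KO and double KO. Cytip, an adaptor of leukocyte adhesion, was at 13.9, 11.6, 51.5 and 117 CPM. Dhx40, a helicase, was at 18.2, 14.5, 31.1 and 47.3 CPM.

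Vim encodes vimentin, the filament that nestin joins (ENSMUSG00000026728, chromosome 2, 13573927 to 13582826, plus strand). It was at 331, 225 and 280 CPM in the wild-type group, 320, 409 and 278 CPM in Lyl1 KO, 201, 208 and 331 CPM in Scl KO, and 149, 168 and 413 CPM in the double KO. All groups overlapped and no comparison was called. In the double KO against wild type the difference was -0.20 ± 0.346 (adjusted p = 0.697, 95% interval -0.95 to 0.56). This rests on double KO 3, the highest of the 12 libraries: without it Vim differed by -0.83 against wild type (adjusted p = 0.0267) and by -1.09 against Lyl1 KO (adjusted p = 0.00656). Per kilobase, vimentin exceeded nestin 72.9 to 99.0 times in wild type, 128 to 534 times in Lyl1 KO, 15.6 to 23.8 times in Scl KO and 6.46 to 8.91 times in the double KO. These ranges did not overlap between any of the groups.

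The sign of small differences depends on the scaling. With library totals alone and no TMM factor, the median of all genes moved from 0.04 to 0.46 in the double KO against wild type, from 0.03 to 0.33 against Scl KO, from 0.06 to 0.53 against Lyl1 KO, from 0.04 to 0.39 in the interaction, and from 0.00 to 0.12 in Scl KO against wild type. On that scale Vim was higher in the double KO than in wild type by 0.25, in place of -0.20, and none of its comparisons was called. Nefh, Nes and Lmna kept direction and calls on it. The direction of their called changes was the same relative to the shifted median, against which no test was run.

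Lmna was the most abundant of the 10 genes per kilobase in 11 of 12 libraries (ENSMUSG00000028063, chromosome 3, 88480147 to 88509956, minus strand). It was at 942, 953 and 817 CPM in the wild-type group, 1120, 937 and 882 CPM in Lyl1 KO, and 879, 833 and 570 CPM in Scl KO. The double KO had 549, 360 and 265 CPM. All double KO libraries were below all others, by a narrow margin from Scl KO 3.

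Lmna fell by 1.21 ± 0.242 in the double KO against wild type, 2.31-fold (adjusted p = 0.00241), and by 1.32 ± 0.243 against Lyl1 KO, 2.504-fold (adjusted p = 0.00125). Against Scl KO it fell by 0.96 ± 0.241, 1.94-fold (adjusted p = 0.0163). That last call was lost in the 6 libraries alone (adjusted p = 0.0732) and without Scl KO 1 (0.0647), Scl KO 2 (0.0626) or double KO 2 (0.0602). Neither single KO differed detectably from wild type, with 0.12 ± 0.238 in Lyl1 KO (adjusted p = 0.937, 95% interval -0.40 to 0.64) and -0.25 ± 0.239 in Scl KO (adjusted p = 0.655, 95% interval -0.77 to 0.27). The interaction was -1.08 ± 0.338 and missed the threshold (adjusted p = 0.0699).

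Megakaryocyte and platelet markers moved in the same direction as Lmna. Of the 13, 12 fell in the double KO against wild type, where 34.5% of all genes were called, with a median log2 change of -1.46 over the list and 0.04 over all genes tested. Against Scl KO, where 19.1% of all genes were called, 12 fell (median -1.27). Other marker lists also had negative medians in the double KO against wild type. These were mesenchyme (-1.71), neural (-1.29), red cell (-1.14), macrophage (-0.91), endothelium (-0.68) and epithelium (-0.30). The cell division list had a median of 0.10. The part of any of these lists in the Lmna levels was not tested. The genes most like Lmna over the 12 libraries were Mob3a (Pearson r = 0.995), Gp9 (r = 0.995) and Scamp2 (r = 0.995). Gp9, a subunit of the platelet receptor for von Willebrand factor, had group means of 906, 1028, 704 and 329 CPM in the wild-type group, Lyl1 KO, Scl KO and double KO. Mob3a was at 347, 362, 318 and 217 CPM, and Scamp2, a carrier membrane protein, at 281, 296, 248 and 178 CPM.

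The bases before the RefSeq starts of Lmna are shown for comparison with Nes, which changed in the other direction (GRCm38.p6, minus strand, chr3:88503387-88503602 for the start farther upstream and chr3:88493313-88493562 for the other), with the match to GATA in capitals.
Lmna upstream start: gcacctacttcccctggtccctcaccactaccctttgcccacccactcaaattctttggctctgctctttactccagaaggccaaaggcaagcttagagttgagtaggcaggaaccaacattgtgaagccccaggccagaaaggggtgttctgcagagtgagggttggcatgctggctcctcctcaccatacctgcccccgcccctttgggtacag
Lmna other start: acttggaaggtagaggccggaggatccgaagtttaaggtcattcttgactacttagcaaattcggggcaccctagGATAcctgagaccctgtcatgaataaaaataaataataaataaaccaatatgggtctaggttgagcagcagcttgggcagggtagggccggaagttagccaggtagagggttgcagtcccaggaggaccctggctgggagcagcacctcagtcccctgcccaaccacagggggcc
The 250 bases before the upstream start held no E-box and no GATA, and those before the other start 1 GATA and no E-box. Both windows lie inside the span of the counted gene (88480147 to 88509956), so the bases before its outermost end were not searched. In neither Nes nor Lmna did the window hold the composite CTGNNNNNNNNGATA, found in 1.91% of RefSeq promoters, and no match says only that these letters are not in it. Lmnb2, not called in the 12-library fit, held the composite in the window chr10:80906413-80906662, with 1 E-box, and 4 E-boxes in its other window. The window with the composite lies inside the span of the counted gene (80901203 to 80918245). Krt8 held 2 E-boxes, Krt18 held 1 and Vim none. Annotated exons of the same gene covered all 250 bases of the Vim window, 140 of that of Krt8 and 36 of that of Krt18. Nefh, Nefm, Nefl and Lmnb1 had no promoter entry to search.

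The B-type lamins were not called in any comparison of the 12-library fit. Lmnb1 (ENSMUSG00000024590, chromosome 18, 56707813 to 56753424, plus strand) was at 22.3, 26.6 and 45.3 CPM in the wild-type group, 24.7, 28.1 and 35.6 CPM in Lyl1 KO, 22.2, 25.3 and 41.4 CPM in Scl KO, and 29.2, 35.9 and 53.7 CPM in the double KO. Its difference in the double KO against wild type was 0.33 ± 0.310 (adjusted p = 0.435, 95% interval -0.34 to 1.009). Against Scl KO it was 0.42 ± 0.310 (adjusted p = 0.386). With the replicate number as a block, a pairing that the labels do not state, Lmnb1 was called higher (0.42, adjusted p = 0.0135). Lmnb2 (ENSMUSG00000062075, chromosome 10, 80901203 to 80918245, minus strand) was at 12.5, 9.81 and 15.1 CPM in the wild-type group and 14.3, 10.99 and 16.7 CPM in the double KO, a difference of 0.17 ± 0.190 (adjusted p = 0.534). On library totals alone Lmnb2 was called higher there, by 0.58 (adjusted p = 0.0452), against a median of all genes of 0.46, and the difference of Lmnb1 between Scl KO and wild type turned from -0.08 to 0.04.

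Within groups, Lmnb1 was highest in the library with the most cell division transcripts in 4 of 4 groups, replicate 3 each time. The summed level of 15 cell division genes was 455, 483 and 872 CPM in the wild-type group and 469, 504 and 946 CPM in the double KO, and none of the 15 was called in any comparison. Lmnb2 was highest in that library in 3 of 4 groups, the exception being Lyl1 KO. Nes and Vim were highest in it in 2 of 4 groups each (Scl KO and double KO), and Nefh and Lmna in 0 of 4. The share of all genes that are highest in that library was not computed. The part of cell division in the lamin levels was not tested.

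**Figure D3:**
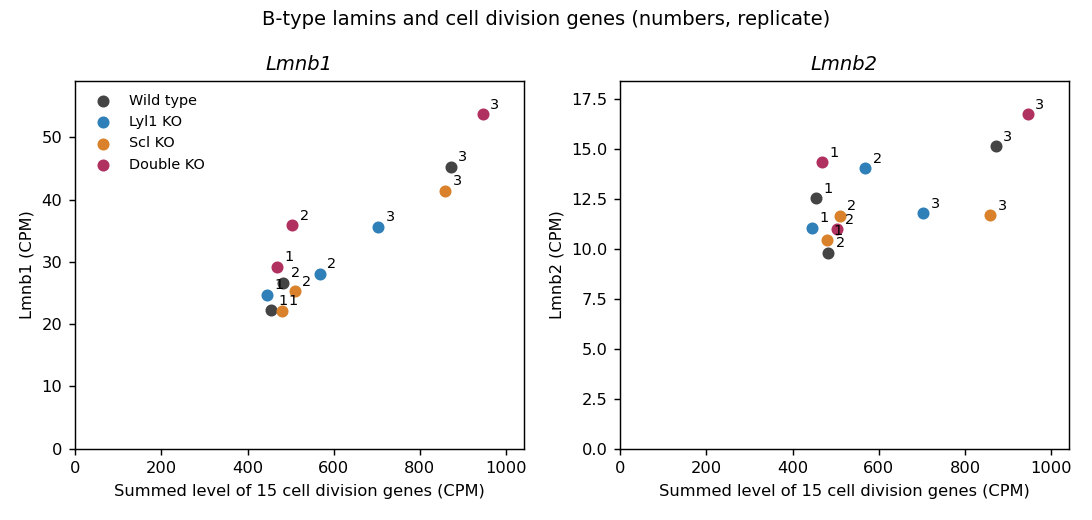
Level of Lmnb1 and Lmnb2 in CPM (y axes) against the summed CPM of 15 cell division genes (x axes), 1 point per library, coloured by genotype and numbered by replicate. Replicate 3 lies to the right in every group and carries the highest Lmnb1 of its group, up to 53.7 CPM in the double KO.

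The ratio of Lmna to Lmnb1, both per kilobase, was 21.5, 18.2 and 9.15 in wild type, 23.0, 16.9 and 12.6 in Lyl1 KO, and 20.1, 16.7 and 6.98 in Scl KO. Double KO libraries had 9.54, 5.09 and 2.51. The double KO overlapped wild type and Scl KO through their replicate 3 and lay below all Lyl1 KO libraries.

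The keratin pair of simple epithelia was at or near 0. Krt8 (chromosome 15, 101996711 to 102004342, minus strand) had 0 counts in wild type, 2 in Lyl1 KO, 1 in Scl KO and 0 in the double KO. Krt18 (chromosome 15, 102028216 to 102032026, plus strand) had 7, 7, 8 and 19 counts in the same order, and its highest library was double KO 2 with 11 counts (0.365 CPM). Of 29 other intermediate filament genes, 12 had no count in any library, all of them keratins, and 6 could be tested.

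Usage was then expressed as the share of each gene in the summed RPKM of the 10 genes, which was 226 to 252 RPKM in wild type, 233 to 286 in Lyl1 KO, 190 to 207 in Scl KO and 116 to 168 in the double KO. Lmna made up 65.5 ± 4.56% in wild type, 63.8 ± 3.98% in Lyl1 KO, 64.8 ± 11.7% in Scl KO and 48.7 ± 19.8% in the double KO, where the libraries ranged from 27.0 to 65.9%. Vim made up 24.8 ± 3.76%, 26.9 ± 4.39%, 26.3 ± 9.12% and 34.8 ± 15.3% in the same order. Their order was Lmna over Vim in all 12 libraries except double KO 3, where Vim held 51.8%.

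Nefh held 3.58 ± 0.143% in wild type, 4.25 ± 1.16% in Lyl1 KO, 1.04 ± 0.167% in Scl KO and 0.0480 ± 0.0160% in the double KO. Nes held 0.287 ± 0.0258%, 0.121 ± 0.112%, 1.43 ± 0.593% and 4.71 ± 2.89%. In wild type the order by mean RPKM was Lmna (155), Vim (58.8), Lmnb1 (10.6 ± 4.13), Nefh (8.47 ± 0.770), Lmnb2 (2.91) and Nes (0.680), and Lmnb1 and Nefh did not differ beyond their spread. By group mean the double KO had the order Lmna (67.0 ± 24.7), Vim (51.3 ± 31.0), Lmnb1 (13.4 ± 4.27), Nes (7.09 ± 5.53), Lmnb2 (3.27) and Nefh (0.0655). The group spreads of Lmna and Vim, Lmnb1 and Nes, and Nes and Lmnb2 overlapped. Within each double KO library, however, Lmnb1 (9.86, 12.1 and 18.1 RPKM) was above Nes (3.82, 3.97 and 13.5). Nes was above Lmnb2 (3.34, 2.56 and 3.90) in each too, while Lmna and Vim changed order in double KO 3. With 3 libraries against 3, an exact two-sided permutation test cannot go below 0.1. Over the 20 differences in share tested, adjusted p-values were 0.222 at the lowest, so none passed.

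**Figure D4:**
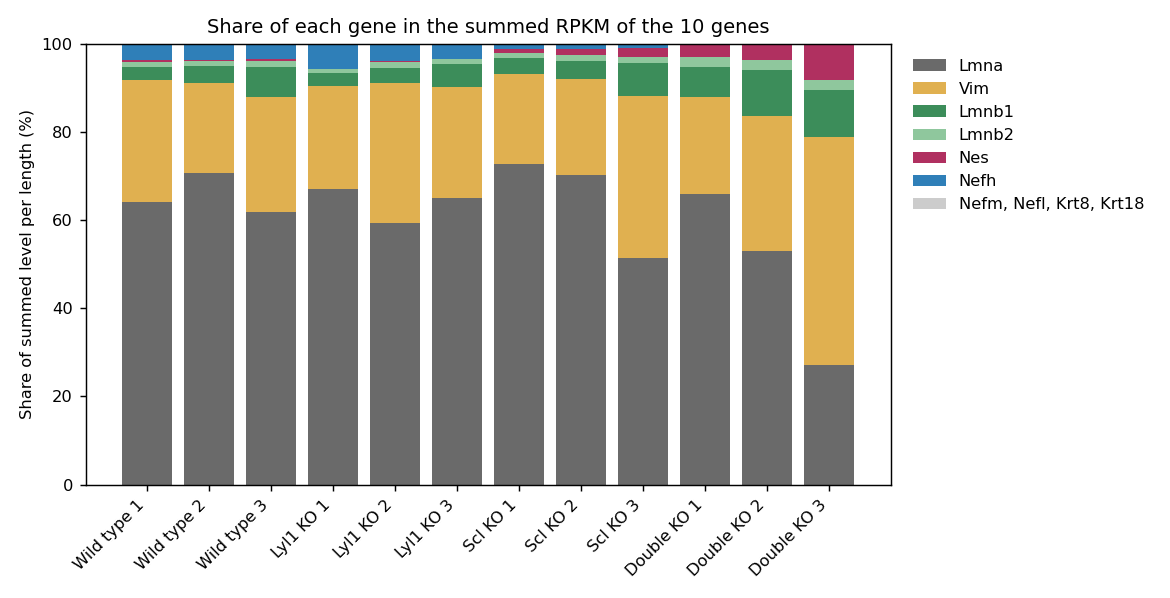
Share (y axis, percent) of each gene in the summed RPKM of the 10 genes, 1 stacked bar per library (x axis). The Nefh band is thin in Scl KO and not visible in the double KO, while the Nes band widens to 8.01% in double KO 3, the library with the smallest Lmna share.

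Filaments are tied to junctions and to other parts of the cytoskeleton by cytolinkers. Of 9 such genes in the table, 8 were tested and none was called in Lyl1 KO or Scl KO against wild type. Of these 8, 4 rose in the double KO against wild type and 0 fell, beside 34.5% of all genes called, with a median log2 change of 0.77 over the list and 0.04 over all genes. Dsp, the desmosomal plakin that anchors keratin and vimentin filaments, was at 3.997, 4.71 and 7.26 CPM in the wild-type group, 6.16, 4.14 and 4.55 CPM in Lyl1 KO, 9.67, 8.56 and 10.5 CPM in Scl KO, and 30.2, 41.0 and 57.3 CPM in the double KO. The Scl KO libraries lay above wild type and the double KO libraries above all others.

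Dsp rose by 3.00 ± 0.277 against wild type, 8.03-fold (adjusted p = 1.16e-05), and by 2.16 ± 0.265 against Scl KO (adjusted p = 0.000274), and its interaction was 2.27 ± 0.377 (adjusted p = 0.00425). Jup, the junction protein plakoglobin that binds Dsp, rose by 1.17 ± 0.298 against wild type (adjusted p = 0.0102). Dst, a spectraplakin, rose by 1.05 ± 0.208 (adjusted p = 0.00229). Macf1, which crosslinks actin and microtubules, rose from 416 ± 24.5 to 590 ± 62.8 CPM, a change of 0.50 ± 0.117 (adjusted p = 0.00599), and its interaction was 0.88 ± 0.165 (adjusted p = 0.00812). Against Scl KO 3 of 8 rose (Dsp, Dst and Macf1), beside 19.1% of all genes called, and against Lyl1 KO all 4, beside 35.2%. Plec, the plectin that links vimentin to the cell cortex, was at 71.8 ± 18.4 CPM in the wild-type group and 91.2 ± 16.5 CPM in the double KO and was not called (adjusted p = 0.151), but on library totals alone it was called higher (0.78, adjusted p = 0.00432). On library totals alone, and without double KO 3, Dsp, Jup, Dst and Macf1 kept their direction and their calls against wild type.

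Among the 6 testable other filament genes, Synm, the synemin that assembles with vimentin, was at 4.25, 6.10 and 13.3 CPM in the wild-type group, 10.8, 11.9 and 11.1 CPM in Lyl1 KO, 8.51, 8.13 and 5.53 CPM in Scl KO, and 16.1, 23.4 and 37.2 CPM in the double KO. All double KO libraries were above all others. Synm rose by 1.69 ± 0.388 against wild type (adjusted p = 0.00545), by 1.79 ± 0.389 against Scl KO (adjusted p = 0.00737) and by 1.18 ± 0.381 against Lyl1 KO (adjusted p = 0.0304), the last call being lost without double KO 3. Against wild type Iffo1 rose by 0.65 ± 0.180 (adjusted p = 0.0159), with overlapping groups, and Iffo2 fell by 1.27 ± 0.432 (adjusted p = 0.0394), a call lost on library totals alone (adjusted p = 0.125). Both encode orphan members of the filament family. Des, the muscle filament desmin, had 184 counts in wild type and 151 in the double KO over 3 libraries each.

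**Figure D5:**
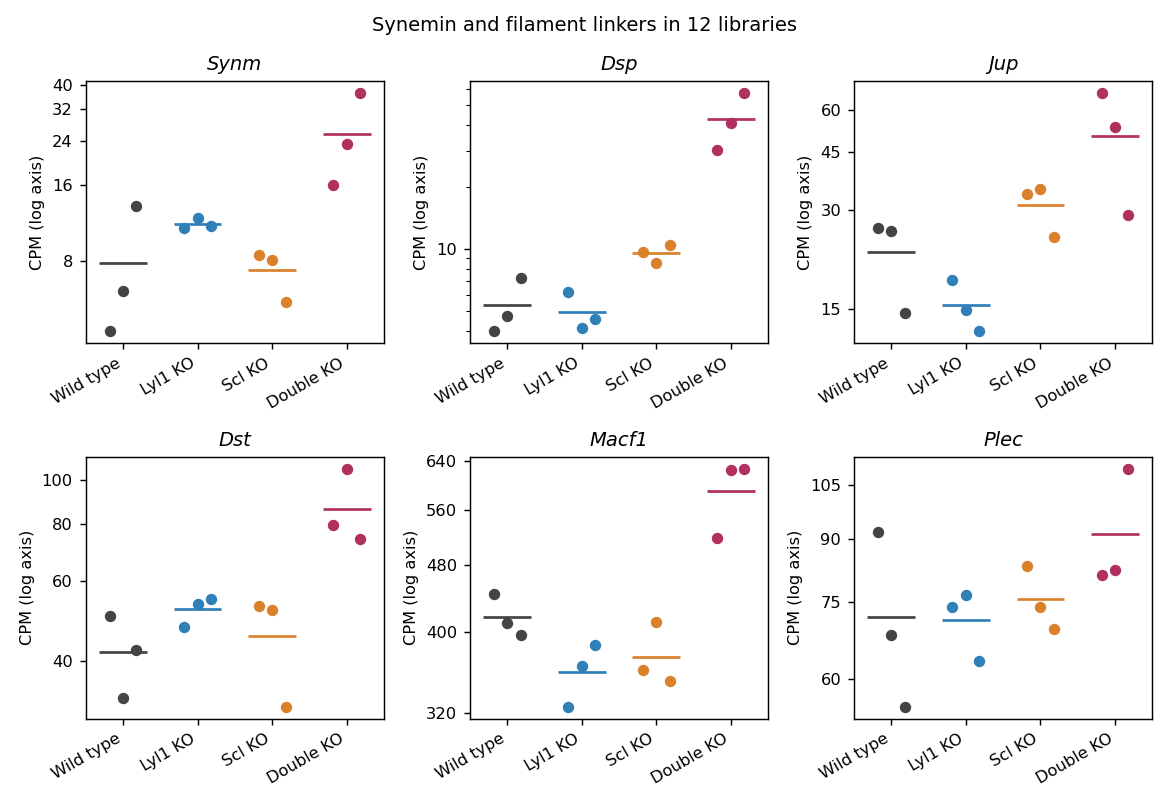
Level in CPM (y axis, log scale) of synemin and 5 cytolinkers in each library (points) of the 4 genotypes (x axis), with group means as lines; n = 3 per group, replicates 1 to 3 from left to right. In the Synm, Dsp, Dst and Macf1 panels all 3 double KO libraries lie above the other 9, while Plec overlaps wild type.

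The lamina partners anchor or process lamins. Of 20 tested, none was called in either single KO against wild type. Of the 20, 2 rose and 4 fell in the double KO against wild type, a share near that of all genes (34.5% called), with a median of -0.13 over the list and 0.04 over all genes. Narf, which was found as a binding partner of prelamin A, was at 364, 416 and 390 CPM in the wild-type group and at 244, 178 and 139 CPM in the double KO. It fell by 1.06 ± 0.181 (adjusted p = 0.000834), and by 0.79 ± 0.180 against Scl KO (adjusted p = 0.00973). Tor1aip2, an activator of torsin at the nuclear envelope, fell by 0.60 ± 0.0877 (adjusted p = 0.000301), and its interaction was -0.49 ± 0.124 (adjusted p = 0.0298).

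Emd, the inner membrane protein emerin that binds lamins, fell by 0.52 ± 0.124 in the double KO against wild type (adjusted p = 0.00748), and Sun2, which couples the lamina to the cytoskeleton, by 0.44 ± 0.124 (adjusted p = 0.0166). Fnta, the farnesyltransferase subunit that acts on prelamin A and B-type lamins, rose by 0.31 ± 0.0851 (adjusted p = 0.0154), and Tor1a, torsin A, by 0.50 ± 0.136 (adjusted p = 0.0136). Against Lyl1 KO, Lbr, the lamin B receptor, also rose, by 0.34 ± 0.122 (adjusted p = 0.0493), a call lost with DESeq2 size factors (adjusted p = 0.058), as was that of Fnta against Lyl1 KO (adjusted p = 0.0626). These small changes depend on the scaling. On library totals alone 8 rose and 1 fell against wild type: only the fall of Narf was kept, at -0.66 (adjusted p = 0.00193), and Tor1aip2 (-0.18), Emd (-0.11) and Sun2 (-0.02) were not called, against a median of all genes of 0.46. Banf1, a chromatin tether at the lamina, was at 26.0 ± 5.14 CPM in the wild-type group and 34.0 ± 7.71 CPM in the double KO and was not called (adjusted p = 0.145), although it was called higher on library totals alone. Zmpste24, the protease that matures lamin A, was at 97.2 ± 14.4 CPM in the wild-type group and 87.5 ± 20.7 CPM in the double KO (adjusted p = 0.489).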

How the data were processed

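The values used are raw counts of reads per gene, deposited by the authors as a table of 12 libraries. STAR 2.5.2b, featureCounts of Subread 1.5.2 and the build GRCm38 are named in the submitters' processing notes. Per the file headers, counting used the reverse strand and Ensembl release 87 gene models, without multi-mapping reads. For trimming, the tool is not given in the sources used. Symbols were matched by gene identifier for 49326 of 49671 genes.

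The fit used edgeR 4.0.16 (R 4.3.3). Genes passed its filterByExpr rule for the genotypes (count of at least 10, total of at least 15), factors were TMM, and a single robust quasi-likelihood model with a term per genotype held all 12 libraries. P-values were Benjamini-Hochberg adjusted over all 15399 genes tested. Levels are TMM-scaled CPM, and RPKM uses the deposited gene length. Intervals are 95%. Shares were compared by exact two-sided permutation tests.

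The members and all gene lists were chosen with earlier results of these data known. Named are all members, up to 4 called genes per list and comparison with the smallest adjusted p, the 3 most abundant per list, markers without counts, and for Nefh, Nes and Lmna, the members with the widest range, the 3 genes of highest Pearson r over the libraries. Of the fixed lists, Eppk1 was not analysed here, and 1 gene that the naming rule covers is not reported here. Des, Ina, Prph, Zmpste24, Fnta and Lbr were named after their values were seen. Promoters are RefSeq's (GRCm38.p6) and matched 6 of 10 members. Alternatives were DESeq2 1.42.0 size factors and Wald test, limma 3.58.1 voom, other filters, the replicate block, a term for the side of principal component 2, only the libraries compared, and each library left out. Replicate numbers were checked as pairs by the correlation of deviations from group means. They were highest for the double KO against Scl KO (0.216, 0.15 and 0.441), but Scl KO 2 correlated more with another double KO library (0.231). Scl KO against wild type gave 0.1, 0.144 and 0.361. Neither the labels nor these values settle whether the numbers are pairs, so the block is an alternative only. The script was tested on simulated data.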

Additional observations from a re-analysis of the deposited data

Results flagged for a closer look

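The interaction of Lyl1 and Scl loss for Nefh was -5.39 ± 0.404 on the log2 scale (edgeR, adjusted p = 8.52e-05): the effect of Lyl1 loss differed between the Scl backgrounds by a test of the difference itself. With Scl present, Lyl1 KO against wild type gave 0.43 ± 0.225, and without it the double KO against Scl KO gave -4.97 ± 0.329. The value rests on 7 to 9 counts in each double KO library and lay between -5.61 and -5.03 under the 20 alternatives.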

How the results depend on the processing

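Called changes of Nefh and Nes, and of Lmna against wild type and Lyl1 KO, kept direction and call under all 15 alternatives run (20 for the interaction). The call of Lmna against Scl KO was lost in 4 of 15. The number of the 6 genes called in Scl KO against wild type was 1, and 2 with DESeq2's Wald test and in the 6 libraries alone (Nes). In the double KO against Scl KO it was 2, 1 in the 6 libraries alone, 3 with the replicate block or a term for the side of principal component 2 (Lmnb1 added), and 1 to 2 with a library left out. That term also added Lmnb1 against Lyl1 KO (4 called in place of 3). The side was read from these same libraries: all Lyl1 KO libraries shared theirs with only replicate 3 of each other genotype. Comparisons with Lyl1 KO, and the interaction, therefore lean on those replicates under that term. In the interaction the number called was 1, 2 with DESeq2's Wald test (Lmna), and 4 with a term for the side of principal component 2 (Nes, Lmna and Lmnb1 added). With a library left out it was 1 to 2 (Nes without Lyl1 KO 2, Lmna without Scl KO 3 or double KO 1). Leaving out a library gave 3 to 4 calls against wild type and 3 to 4 against Lyl1 KO. Without gene length the share of Lmna was 71.4% in wild type and 69.7% in Lyl1 KO.

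Outside the double KO against Scl KO, correlations of deviations between same-numbered libraries ran from -0.04 to 0.36. All were positive in Scl KO and in the double KO against wild type. Each comparison with Lyl1 KO held a negative value (-0.015 against wild type, -0.043 against the double KO). The main fit did not take the numbers as pairs in any comparison. With the replicate block 2 genes were called in the interaction (Lmna added), and Lmnb1 was called in the double KO against wild type (0.35, adjusted p = 0.0215), Scl KO (0.42) and Lyl1 KO (0.39).

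Over all genes, DESeq2's Wald test called 100 in Lyl1 KO against wild type (edgeR 11, with 1230 at an unadjusted p under 0.05), 1329 in Scl KO (774) and 2261 in the interaction (1444). On library totals alone 8065 were called in the double KO against wild type (5312), 81.0% of them up (47.7%). That share was 79.4% against Scl KO (43.7%), 83.5% against Lyl1 KO (49.3%), 78.5% in the interaction (37.5%) and 62.0% in Scl KO against wild type (45.6%). Library totals also called 4834 against Scl KO (2947), 8313 against Lyl1 KO (5422) and 2461 in the interaction. The term for principal component 2 called 1631 in Scl KO against wild type and 3199 in the interaction, and the replicate block 1226 in Scl KO. Fits of the 6 libraries alone called 1742 genes between double and Scl KO and 29 between Lyl1 KO and wild type. With a library left out the counts ran from 5 to 41 in Lyl1 KO, 388 to 955 in Scl KO, 1645 to 3222 in the double KO against Scl KO and 671 to 1925 in the interaction. The cause was not tested. Library totals alone, and the lists without double KO 3, were tried after seeing the data. Depth limits Nefm, Nefl, Krt8 and Krt18.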
